A study of Mus musculus with 9 samples.

Results

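Metallothioneins and the zinc transporters that work with them were followed in mouse back skin. The genes were taken by symbol from the count tables: the metallothionein genes Mt1, Mt2, Mt3 and Mt4, the transcription factor gene Mtf1, the zinc exporter gene Slc30a1 and the zinc importer genes Slc39a10 and Slc39a14. All 8 symbols were present once among 23282 table entries, and all 8 passed the low-count filter that left 13740 genes for testing. Mt3 passed it on its counts in stripped libraries, and Mt4 on its counts in unstripped libraries. The list was drawn up with earlier fits of all 3 comparisons in view. Levels, fold changes and calls of these 8 genes are therefore given as a description, with no p-value, and nothing is rested on them.

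Every mouse was a wild-type C57BL/6 (B6) animal, per the labels, which give no age or sex. In the NGO-treated group the skin was tape-stripped, which pulls off the outer epidermal layers, and received 50 µg of nano-sized graphene oxide in 100 µL of cream. In the stripped control group the skin was stripped and received the control cream. The third group was unstripped and carries the control cream label, but the protocol describes cream for the stripped area, and the labels do not settle if unstripped skin got any. Each group had 3 libraries from skin taken 24 h after treatment. The labels do not say whether the replicates were separate animals, so the spread between them may be technical.

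Metallothioneins are small cysteine-rich proteins that bind zinc and copper in the cytosol. Zinc entering a cell is sensed by the zinc finger factor MTF1, which binds metal response elements in the promoters of Mt1, Mt2 and Slc30a1 and switches these genes on. Mt1 and Mt2 are also known to respond to glucocorticoids and to interleukin-6 signalling through STAT3. Mt3 is known from the brain, and Mt4 from stratified squamous epithelium such as the epidermis. SLC30 proteins (ZnT) move zinc out of the cytosol, and SLC39 proteins (ZIP) move it in.

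The 4 metallothionein genes lie side by side on mouse chromosome 8, in a 43.1 kb stretch (mm10, chr8:94137197-94180327, plus strand) in the order Mt4, Mt3, Mt2 and Mt1. Their promoter windows are shown because the 4 neighbours did not all move alike. Mt4 was lower in both stripped groups than in unstripped skin, while Mt1, Mt2 and Mt3 had higher means there. The window of Slc30a1 is shown because it is another textbook MTF1 target. Whether the windows bear on these levels was not tested. Each window runs from 250 bases before to 50 bases after the gene start in RefSeq (build GRCm38.p6, 5′ to 3′ along the gene). Capitals mark matches to the 7-letter core of the metal response element, searched as TGCACNC and TGCGCNC on both strands.
Mt1 (chr8:94178839-94179138, plus strand): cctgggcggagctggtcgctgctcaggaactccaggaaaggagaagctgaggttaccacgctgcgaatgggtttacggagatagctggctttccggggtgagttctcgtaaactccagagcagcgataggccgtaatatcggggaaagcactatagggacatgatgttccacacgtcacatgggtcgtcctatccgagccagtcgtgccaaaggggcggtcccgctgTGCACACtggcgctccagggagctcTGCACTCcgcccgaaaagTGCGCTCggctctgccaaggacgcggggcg
Mt2 (chr8:94172368-94172667, plus strand): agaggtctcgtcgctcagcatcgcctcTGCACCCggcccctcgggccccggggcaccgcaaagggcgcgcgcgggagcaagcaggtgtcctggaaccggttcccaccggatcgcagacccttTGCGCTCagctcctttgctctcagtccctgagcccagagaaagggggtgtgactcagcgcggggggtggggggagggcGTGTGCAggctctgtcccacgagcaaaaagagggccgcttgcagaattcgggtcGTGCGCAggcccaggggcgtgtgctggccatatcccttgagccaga
Mt3 (chr8:94152357-94152656, plus strand): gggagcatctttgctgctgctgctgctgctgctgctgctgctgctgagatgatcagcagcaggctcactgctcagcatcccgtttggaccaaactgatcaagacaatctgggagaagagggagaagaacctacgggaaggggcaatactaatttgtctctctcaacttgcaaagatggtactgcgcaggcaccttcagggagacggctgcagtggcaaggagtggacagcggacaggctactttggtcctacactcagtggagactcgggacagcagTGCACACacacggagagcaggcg
Mt4 (chr8:94136954-94137253, plus strand): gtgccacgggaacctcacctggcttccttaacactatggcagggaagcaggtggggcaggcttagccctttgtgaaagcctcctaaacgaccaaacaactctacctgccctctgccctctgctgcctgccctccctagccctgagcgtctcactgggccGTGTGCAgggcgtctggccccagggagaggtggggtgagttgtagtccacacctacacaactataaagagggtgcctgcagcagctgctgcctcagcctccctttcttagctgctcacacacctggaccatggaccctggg
Slc30a1 (chr1:191906531-191906830, plus strand): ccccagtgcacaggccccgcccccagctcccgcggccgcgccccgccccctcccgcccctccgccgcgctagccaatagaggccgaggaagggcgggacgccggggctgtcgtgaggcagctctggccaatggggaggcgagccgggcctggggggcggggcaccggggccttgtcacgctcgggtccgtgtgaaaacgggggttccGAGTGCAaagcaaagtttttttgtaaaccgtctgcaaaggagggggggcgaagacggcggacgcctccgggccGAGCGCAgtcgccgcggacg

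The Mt2 window held 4 matches and the Mt1 window 3, while the Mt3 and Mt4 windows held 1 each. Slc30a1 had 2 matches, and Mtf1 and both entries of Slc39a10 had 0. Of all 32851 windows in the table, 25.7% held at least 1 match, 7.11% at least 2, 1.97% at least 3 and 0.517% at least 4. The matches of Mt1 started 23 bases before the RefSeq gene start and at bases 2 and 20 after it. That annotated start was not checked against the start of transcription in skin. Bases beyond each window were not searched, so the counts are of this window and not of the whole promoter. A match is a string of letters in this window, not an established binding site, and 7 of the 8 genes had a window.

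Total counts ran from 2997238 to 6303322 in NGO-treated, from 2019739 to 4053655 in stripped control and from 2794791 to 2937738 in unstripped libraries. The libraries also differed in tissue content. The 19 skeletal muscle markers together took 2.66% to 5.50% of counts in NGO-treated, 5.10% to 11.4% in stripped control and 0.0180% to 0.190% in unstripped libraries, and none of the 19 was at 0 in any group. The 10 basal epidermal markers took 1.37% to 2.11% in NGO-treated, 0.151% to 0.252% in stripped control and 2.71% to 3.35% in unstripped libraries, again with none at 0. The 11 measured of 12 neutrophil markers took 0.0645% to 0.198% in NGO-treated, 0.289% to 0.858% in stripped control and 0.00957% to 0.0131% in unstripped libraries. Camp was at 0 throughout, and Clec4d and Ngp were also at 0 in unstripped skin. Most of the sum came from S100a9 and S100a8 in stripped control (26200 and 20655 counts) and NGO-treated skin (7723 and 5512). In unstripped skin most came from Mmp9 (511) and Mmp8 (294). In NGO-treated against unstripped skin 7 of 10 tested neutrophil markers were fitted above 0 and 3 below, Csf3r (-0.11), Mmp9 (-1.37) and Mmp8 (-1.49). Stripped skin also held more fat, endothelial, red blood cell, fibroblast and macrophage marker counts, as sums over each list. Not every marker went with its sum. In stripped control against unstripped skin 1 of 10 fibroblast, 1 of 7 tested fat and 0 of 9 tested endothelial markers were fitted below 0. In NGO-treated against unstripped skin it was 2 fibroblast, 0 fat, 2 endothelial and 1 macrophage marker. The macrophage markers were mixed in stripped control against unstripped skin, with 8 of 10 fitted above 0 and 2 below, Csf1r (-0.96) and Adgre1 (-1.10). Of the 10, 2 were called higher there, Cd68 and Cd14 (edgeR adjusted p under 0.05), where 5.97% of all tested genes were. The 10 fat markers took 0.0557% to 0.0947% in NGO-treated, 0.0840% to 0.106% in stripped control and 0.00748% to 0.0102% in unstripped libraries, with Lep and Cidec at 0 in stripped control and Plin1 at 0 in unstripped skin. The 8 red blood cell genes took 0.0306% to 0.0571% in NGO-treated, 0.0936% to 0.125% in stripped control and 0.00554% to 0.0179% in unstripped libraries, with Slc4a1 at 0 in NGO-treated and unstripped skin. The 10 endothelial markers took 0.0215% to 0.0392% in NGO-treated, 0.0315% to 0.0697% in stripped control and 0.00466% to 0.00725% in unstripped libraries, with Tie1 at 0 in the last. The 10 fibroblast markers took 0.0747% to 0.143% in NGO-treated, 0.0749% to 0.132% in stripped control and 0.0379% to 0.0478% in unstripped libraries, and the 10 macrophage markers 0.0156% to 0.0231%, 0.0275% to 0.0634% and 0.00756% to 0.0134% in the same order of groups, with none at 0. Ribosomal Rn45s took 9.35% to 20.99% of counts in NGO-treated, 22.1% to 25.1% in stripped control and 13.2% to 16.05% in unstripped libraries. The part of these shares in the results below was not tested.

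Mt1 and Mt2, the widely expressed metal-inducible metallothioneins, were the most abundant of the 8 genes in each group. Levels are given in CPM, which puts all libraries on 1 TMM-scaled depth, and since the libraries tag the 3′ end of each transcript they were not divided by transcript length. Mt1 (chr8:94179082-94180327) had 4667, 3917 and 6165 CPM in NGO-treated libraries 1 to 3, against 5073, 11592 and 15561 CPM in stripped control libraries and 852, 464 and 483 CPM in unstripped libraries. All stripped libraries of either kind lay above all unstripped ones, while the NGO-treated range overlapped the stripped control range through its replicate 1. The mean was 4916 ± 1145 CPM in NGO-treated, 10742 ± 5296 CPM in stripped control and 599.8 ± 219 CPM in unstripped skin (SD, n = 3 each).

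Mt2 (chr8:94172664-94173568) had 3047, 3549 and 4244 CPM in NGO-treated libraries, against 5343, 8792 and 10904 CPM in stripped control libraries and 1063, 1595 and 1710 CPM in unstripped libraries. The 3 groups did not overlap, with stripped control skin on top and unstripped skin at the bottom. Fitted by edgeR, the log2 fold change of stripped control against unstripped skin was 4.16 ± 0.45 (SE) for Mt1 and 2.52 ± 0.34 for Mt2. For NGO-treated against stripped control skin it was -1.13 ± 0.40 for Mt1 and -1.21 ± 0.32 for Mt2. For NGO-treated against unstripped skin it was 3.04 ± 0.43 for Mt1 and 1.31 ± 0.32 for Mt2. These comparisons share libraries pairwise, so a high stripped control value enters both the first and the second with opposite sign.

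**Figure D1:**
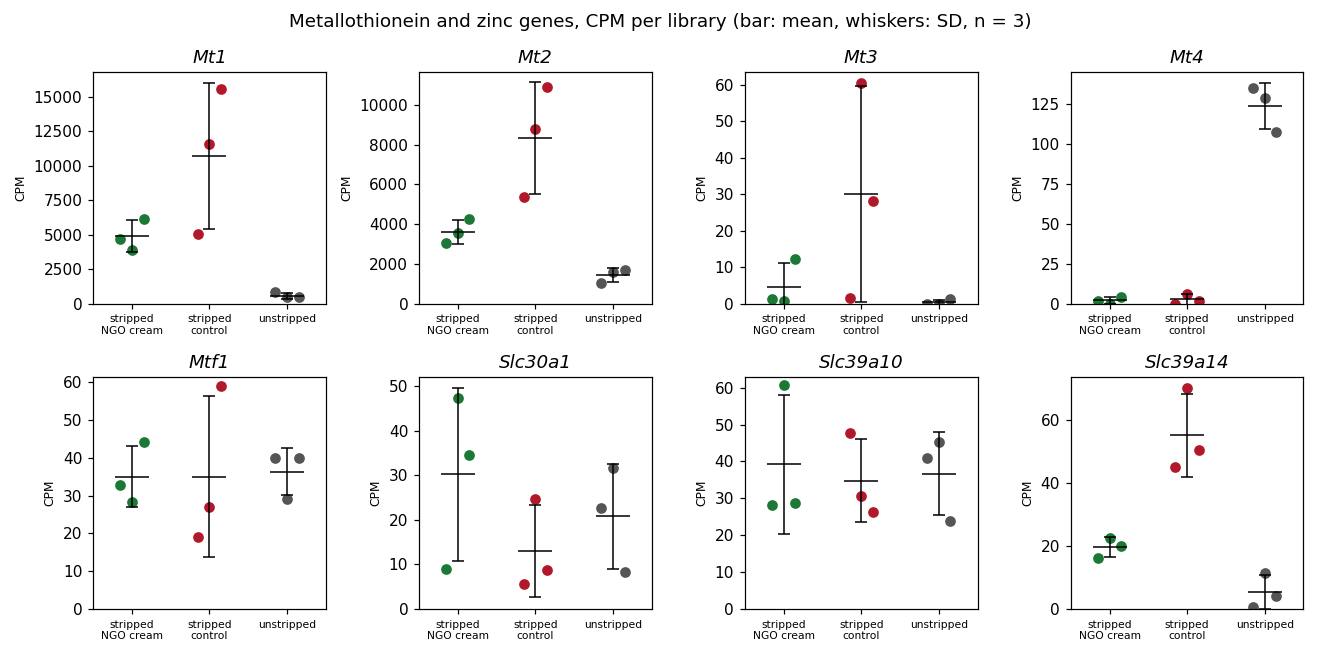
CPM of the 8 genes in each library, 1 point per library, in NGO-treated, stripped control and unstripped skin from left to right, with the mean and SD of 3 libraries on a linear axis from 0. Mt1, Mt2 and Slc39a14 peaked in stripped control skin, Mt4 was high in unstripped skin alone, and Mtf1 and Slc39a10 overlapped in every group.

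Together Mt1 and Mt2 took 0.852%, 0.822% and 0.993% of all counts in NGO-treated libraries, against 0.997%, 1.64% and 2.03% in stripped control libraries and 0.199%, 0.239% and 0.253% in unstripped libraries. The lowest stripped control library, replicate 1, therefore sat next to the highest NGO-treated one. The balance of the pair differed as well. For each Mt2 count there were 1.53, 1.10 and 1.45 Mt1 counts in NGO-treated libraries, 0.949, 1.32 and 1.43 in stripped control libraries and 0.802, 0.291 and 0.283 in unstripped libraries. Mt2 thus led in all 3 unstripped libraries and in stripped control replicate 1, and Mt1 led in the other 5 libraries. Within unstripped skin replicate 1 stood apart, with the most Mt1 and the least Mt2 of its group.

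Muscle content followed the same order among the stripped control libraries as Mt1, at 5.10%, 8.87% and 11.4% in replicates 1 to 3. In NGO-treated libraries it was 2.86%, 2.66% and 5.50%, again with the highest Mt1 and the highest muscle share in replicate 3. In unstripped libraries the orders differed: muscle took 0.0998%, 0.0180% and 0.190%, highest in replicate 3, while Mt1 was highest in replicate 1. Total counts also rose from replicate 1 to 3 in stripped control libraries and were highest in NGO-treated replicate 3. With library sizes computed without ribosomal Rn45s and without muscle, fat, blood and hair genes, the stripped control against unstripped log2 fold change was 4.17 for Mt1 and 2.53 for Mt2. That fit changed the scaling alone and kept every Mt1 and Mt2 count. It therefore cannot show how much muscle contributed to them, which was not tested.

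**Figure D2:**
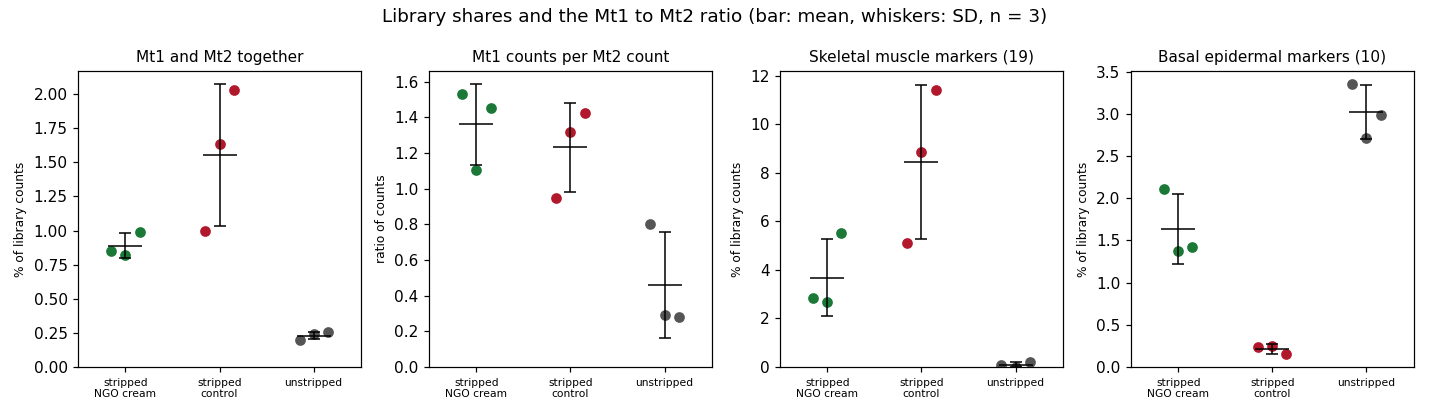
Share of library counts taken by Mt1 and Mt2 together, the count ratio of Mt1 to Mt2, and the summed shares of skeletal muscle and basal epidermal markers, with 1 point per library and the mean and SD of 3. The Mt share was 0.822% to 0.993% in NGO-treated, 0.997% to 2.03% in stripped control and 0.199% to 0.253% in unstripped libraries, and the muscle share had the same order of groups.

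Mt4 (chr8:94137197-94139031), the metallothionein of stratified epithelium, ran the other way. It had 1.81, 0 and 4.49 CPM in NGO-treated libraries, against 0, 6.17 and 1.93 CPM in stripped control libraries and 135, 129 and 108 CPM in unstripped libraries. In counts this was 33 in all NGO-treated libraries, 25 in all stripped control libraries and 1194 in all unstripped libraries. Both stripped groups lay below unstripped skin without overlap and overlapped each other. The fitted log2 fold change was -5.43 ± 1.12 for stripped control and -5.81 ± 1.13 for NGO-treated against unstripped skin, and -0.38 ± 1.03 for NGO-treated against stripped control skin. The pooled count ratio of NGO-treated to stripped control skin was 0.786, with an exact 95% interval of 0.453 to 1.38 that covers counting error alone. In bulk tissue fewer cells of a type and less RNA per cell cannot be told apart.

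The epidermal marker lists had fitted values below 0 beside Mt4 in stripped control against unstripped skin, and above 0, unlike Mt4, in NGO-treated against stripped control skin (all 10 basal and all 9 suprabasal markers, medians 2.08 and 2.24). Of the 10 basal markers 8 were called lower in stripped control than in unstripped skin, and 7 were called higher in NGO-treated than in stripped control skin. Of 9 measured suprabasal markers 8 were called lower in the first comparison and 3 higher in the second (all by edgeR's adjusted p under 0.05). Of all tested genes 7.64% were called lower in the first and 3.87% higher in the second. The suprabasal list took 0.104% to 0.147% of counts in NGO-treated, 0.0188% to 0.0399% in stripped control and 0.689% to 1.53% in unstripped libraries, and its member Ivl was at 0 in stripped control skin. Whether Mt4 and these lists differ in their response to NGO was not tested.

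Mt3 (chr8:94152607-94154146), the brain-type metallothionein, was rare and uneven. It had 1.21, 0.694 and 12.1 CPM in NGO-treated libraries, against 1.55, 60.4 and 28.3 CPM in stripped control libraries and 0, 0 and 1.18 CPM in unstripped libraries. The values rest on 80 counts in NGO-treated, 277 in stripped control and 4 in unstripped skin, all 4 from unstripped replicate 3. Stripped control replicate 1, with 3 counts, lay close to the unstripped libraries, while its replicates 2 and 3 had 186 and 88 counts. The pooled ratio of stripped control to unstripped counts was 82.6 (exact 95% interval 31.9 to 305, counting error alone), and the fitted log2 fold change was 6.11 ± 1.92. It was -2.66 ± 1.58 for NGO-treated against stripped control skin and 3.45 ± 1.74 for NGO-treated against unstripped skin. The libraries with the most Mt3, stripped control 2 and 3 and NGO-treated 3, were also those with 8.87%, 11.4% and 5.50% muscle markers, the 3 highest muscle shares of the 9.

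**Figure D3:**
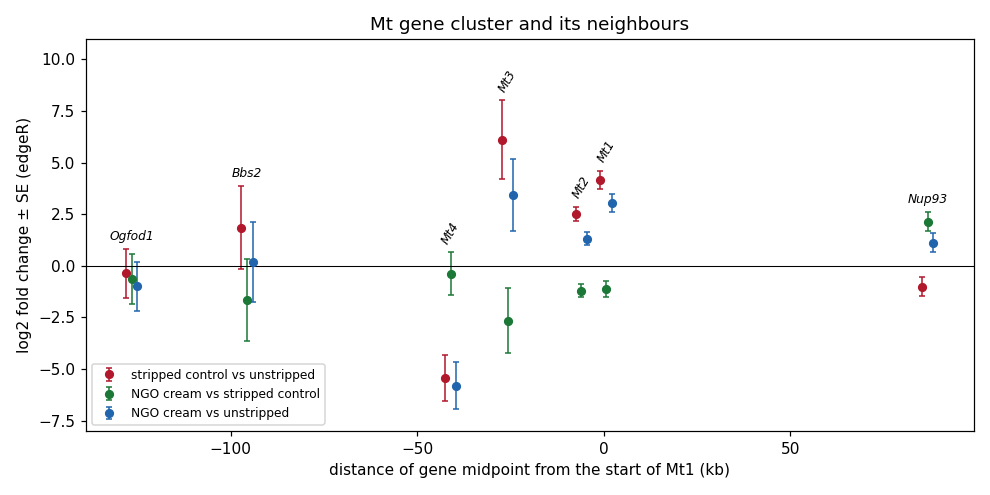
Fitted log2 fold change ± SE of the tested genes with an end within 100 kb of the metallothionein cluster, by distance of the gene midpoint from the start of Mt1 in kb, with 1 colour per comparison. Against unstripped skin Mt4 lay below 0 and Mt1, Mt2 and Mt3 above it, and none of the other 3 genes was called in that comparison.

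The genes flanking the cluster were chosen by position after the values of the cluster were seen, and were fitted in the main model alone. Bbs2, next to Mt4, had log2 fold changes of 1.84 ± 2.01 in stripped control against unstripped skin and -1.66 ± 1.99 in NGO-treated against stripped control skin, and neither passed (edgeR adjusted p = 0.625 and 0.696). Nup93, a nuclear pore gene on the other side of Mt1, had -1.01 ± 0.46 in stripped control against unstripped skin (edgeR adjusted p = 0.168) and rose with NGO, at 126 CPM in NGO-treated against 28.6 CPM in stripped control skin (2.13 ± 0.47, adjusted p = 0.0226). Both these Nup93 values had the opposite sign to those of Mt1 and Mt2, and both rest on the same stripped control libraries. In NGO-treated against unstripped skin Nup93 had 1.13 ± 0.45 (edgeR adjusted p = 0.321), the same sign as Mt1 and Mt2. Ogfod1, beyond Bbs2, was called in none of the 3 comparisons (log2 fold changes from -1.002 to -0.37), and genes farther out are not reported here.

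Mtf1 (chr4:124802104-124849800), the zinc sensor itself, was level. It had 32.9, 28.2 and 44.1 CPM in NGO-treated libraries, against 19.1, 27.0 and 59.1 CPM in stripped control libraries and 39.9, 29.2 and 40.1 CPM in unstripped libraries. The groups overlapped throughout, and the stripped control libraries alone spanned the range of both other groups. The fitted log2 fold change was -0.05 ± 0.57 for stripped control and -0.05 ± 0.56 for NGO-treated against unstripped skin, and -0.0026 ± 0.56 between NGO-treated and stripped control skin, and the sign of the first changed with RLE and upper-quartile scaling. Mtf1 transcript thus differed between groups by less than its own error.

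Slc30a1 (chr1:191906767-191913247), the plasma membrane zinc exporter, had 9.06, 47.2 and 34.4 CPM in NGO-treated libraries, against 5.69, 24.7 and 8.68 CPM in stripped control libraries and 22.7, 31.5 and 8.25 CPM in unstripped libraries. Each group held a library at or below 9.06 CPM, so all overlapped. The fitted log2 fold change was -0.67 ± 0.88 for stripped control and 0.54 ± 0.87 for NGO-treated against unstripped skin, and 1.21 ± 0.88 for NGO-treated against stripped control skin. Unlike Mt1 and Mt2, it had no group of libraries apart from the rest.

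Slc39a14 (chr14:70303469-70351425), the ZIP14 importer that carries zinc, iron and manganese and that interleukin-6 is known to induce in mouse liver, followed the order of Mt2. It had 16.3, 22.7 and 19.96 CPM in NGO-treated libraries, against 45.0, 70.2 and 50.4 CPM in stripped control libraries and 0.688, 11.5 and 4.13 CPM in unstripped libraries. The 3 groups did not overlap, and the NGO-treated libraries lay close together at 19.6 ± 3.19 CPM (SD, n = 3). The fitted log2 fold change was 3.33 ± 0.86 for stripped control and 1.84 ± 0.82 for NGO-treated against unstripped skin, and -1.49 ± 0.79 for NGO-treated against stripped control skin. The unstripped value rests on 55 counts in 3 libraries, 2 of them in replicate 1.

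Slc39a10 (chr1:46807544-46892852, minus strand), the ZIP10 importer, had 28.1, 60.8 and 28.6 CPM in NGO-treated libraries, against 47.6, 30.5 and 26.3 CPM in stripped control libraries and 40.9, 45.4 and 23.9 CPM in unstripped libraries. No group stood apart. The fitted log2 fold change was -0.08 ± 0.56 for stripped control and 0.09 ± 0.55 for NGO-treated against unstripped skin, and 0.17 ± 0.55 for NGO-treated against stripped control skin, and the first changed sign with RLE and upper-quartile scaling and with DESeq2. The 3 groups thus lay apart for Slc39a14 and were mixed for Slc39a10, and the 2 importers were not tested against each other.

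**Figure D4:**
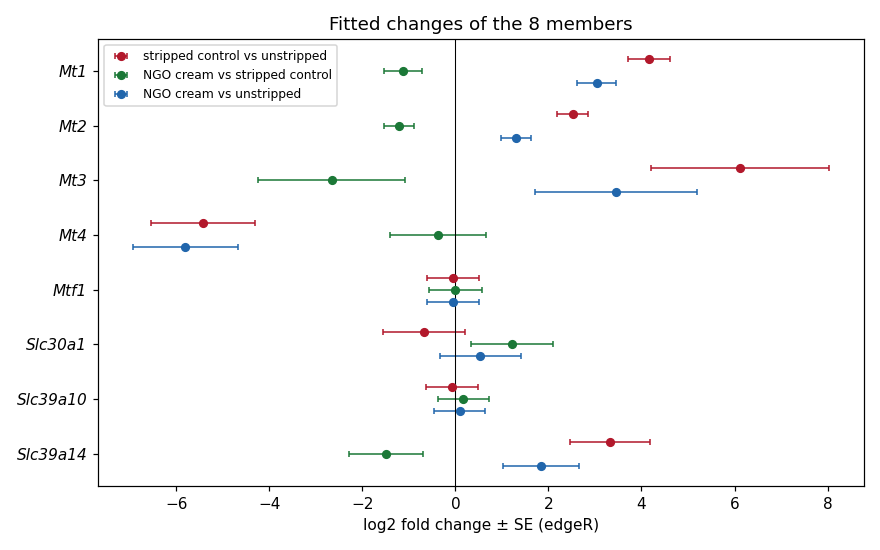
Fitted log2 fold change ± SE of the 8 genes in the 3 comparisons, 1 colour per comparison, with 0 marked. Mt1, Mt2, Mt3 and Slc39a14 lay above 0 against unstripped skin and below 0 for NGO-treated against stripped control skin, Mt4 lay below 0 in all 3, and Mtf1 and Slc39a10 lay near 0.

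As a count of calls at edgeR's adjusted p under 0.05, Mt1, Mt2 and Slc39a14 were called higher and Mt4 lower in stripped control than in unstripped skin, 4 of 8 genes where 13.6% of all tested genes were called (5.97% higher, 7.64% lower). In NGO-treated against stripped control skin 1 gene, Mt2, was called lower, where 5.05% of all genes were called (3.87% higher, 1.18% lower). In NGO-treated against unstripped skin Mt1 was called higher and Mt4 lower, 2 of 8 where 2.51% of all genes were called (2.06% higher, 0.451% lower). Groups did not overlap for 5 of the 8 genes in the first comparison, 4 above and 1 below, where this held for 38.5% of all genes (13.8% above, 24.7% below). They did not overlap for 2 genes in the second, both below (25.2% of all genes, 16.3% above and 8.92% below), and for 4 in the third, 3 above and 1 below (26.2%, 11.9% above and 14.4% below). Nothing is read from these counts, since the same comparisons were known when the genes were listed. The median log2 fold change of the 8 genes was 1.23, -0.75 and 0.92 in the 3 comparisons, beside -0.20, 0.07 and -0.07 over all genes.

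Some of these calls hung on single libraries. The call of Mt2 in NGO-treated against stripped control skin was lost without any 1 of the NGO-treated replicates, on removal of replicate 2 or 3 of either other group, and in a fit of these 2 groups by themselves, with a log2 fold change between -1.48 and -0.95 over the 9 fits with 1 library removed. Mt1 was called in that comparison without stripped control replicate 1 (-1.50) and with DESeq2 (-1.24). Slc39a14 lost its call in stripped control against unstripped skin once stripped control replicate 2 (3.11) or unstripped replicate 3 (3.14) was removed, and Mt4 lost its call in NGO-treated against unstripped skin without unstripped replicate 1 or NGO-treated replicate 1. Mt3 was called in stripped control against unstripped skin in 7 of 16 alternatives. Mt2 was called in NGO-treated against unstripped skin in 6 of 17.

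The remaining members of both transporter families are given for completeness. They are what was left once Slc39a14 and the other listed transporters had been chosen with these comparisons known, so they are not an independent set. Of 9 other SLC30 and 12 other SLC39 genes, 16 passed the filter, and 0 were called by edgeR in any of the 3 comparisons. At an unadjusted p under 0.05 the counts were 3 in stripped control against unstripped skin, 1 (Slc39a11) in NGO-treated against stripped control skin and 0 in NGO-treated against unstripped skin. Over all 13740 genes 27.9%, 21.2% and 11.7% had such a p in the same order. DESeq2 called 2 in the first and 0 in the others. The median log2 fold change of the 16 was -0.17, -0.06 and -0.05 in the same order, close to that of all genes.

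The 3 genes with an unadjusted p under 0.05, named after their values were seen, were all importers. Slc39a11 (ZIP11) had 66.1, 56.9 and 44.8 CPM in NGO-treated libraries, against 12.4, 10.4 and 27.0 CPM in stripped control libraries and 113, 31.5 and 31.2 CPM in unstripped libraries. Stripped control skin lay below both other groups, with a log2 fold change of -1.81 ± 0.63 against unstripped skin (edgeR adjusted p = 0.0737) and of 1.74 ± 0.63 for NGO-treated against stripped control skin (adjusted p = 0.127). Without stripped control replicate 3 the first was called (-2.35, adjusted p = 0.0411). Slc39a7 (ZIP7), which releases zinc from the endoplasmic reticulum, averaged 58.4 ± 14.2 CPM in NGO-treated, 73.4 ± 13.1 CPM in stripped control and 38.1 ± 5.74 CPM in unstripped skin, 0.95 ± 0.42 for stripped control against unstripped skin (edgeR adjusted p = 0.158). Slc39a1 (ZIP1), the most abundant of the 16, averaged 115 ± 47.3 CPM in NGO-treated, 158 ± 40.2 CPM in stripped control and 91.3 ± 2.52 CPM in unstripped skin, 0.79 ± 0.36 for stripped control against unstripped skin (adjusted p = 0.176). None of these passed the test.

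The other 13 tested transporters had log2 fold changes from -1.80 (Slc39a8) to 1.17 (Slc39a2) in stripped control against unstripped skin. The 5 genes below the filter were Slc30a3, Slc30a8, Slc30a10, Slc39a4 and Slc39a12. Slc30a3 had 0 counts in all 9 libraries, and Slc30a8, the zinc transporter of insulin granules, had 42 of its 43 counts in stripped control replicate 3.

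**Figure D5:**
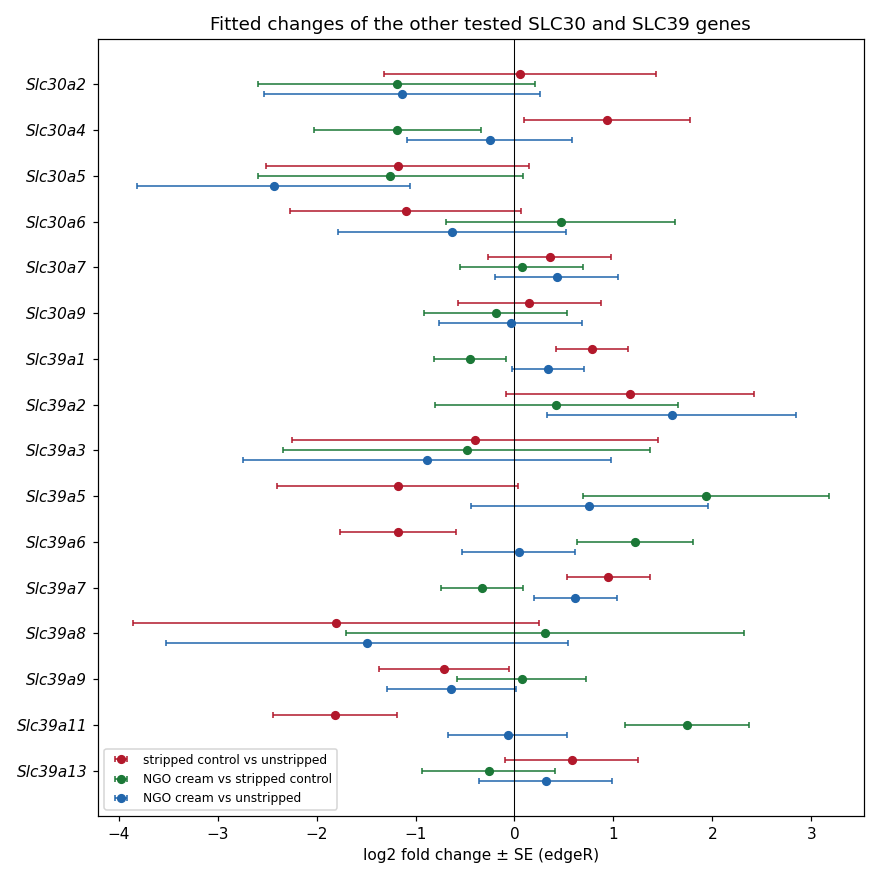
Fitted log2 fold change ± SE of the 16 tested SLC30 and SLC39 genes outside the listed 8, in the 3 comparisons, 1 colour per comparison. None was called by edgeR, and Slc39a11 had the lowest value in stripped control against unstripped skin at -1.81.

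Genes known to share inputs with Mt1 and Mt2 were set beside them. Of all tested genes 13.6% were called in stripped control against unstripped skin and 5.05% in NGO-treated against stripped control skin. In NGO-treated against unstripped skin it was 2.51%. The call counts of the lists below stand beside these shares, and nothing is read from them. Of 7 measured further MTF1-linked genes, Sepw1, a small selenoprotein gene, was called higher in stripped control than in unstripped skin (1.78 ± 0.51, edgeR adjusted p = 0.0335) and 0 were called lower. It averaged 81.7 ± 43.0 CPM in NGO-treated, 173 ± 85.4 CPM in stripped control and 50.5 ± 17.8 CPM in unstripped skin, and the call was lost with the replicate block and on removal of NGO-treated replicate 1, of stripped control replicate 2 or 3, or of unstripped replicate 2 or 3. In the other comparisons 0 of the 7 were called. The median of the list was -0.49 in stripped control against unstripped skin, 0.82 in NGO-treated against stripped control skin and -0.10 in NGO-treated against unstripped skin.

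Of 8 glucocorticoid-responsive genes, 2 were called higher in stripped control than in unstripped skin. Tsc22d3, the glucocorticoid-induced leucine zipper gene, had 141, 127 and 190.0 CPM in NGO-treated libraries, against 184, 282 and 381 CPM in stripped control libraries and 51.9, 50.1 and 77.5 CPM in unstripped libraries. Its log2 fold change was 2.24 ± 0.37 in stripped control against unstripped skin (edgeR adjusted p = 0.00113) and -0.89 ± 0.35 in NGO-treated against stripped control skin (adjusted p = 0.169). Klf9 averaged 116 ± 47.3 CPM in NGO-treated, 253 ± 113 CPM in stripped control and 87.3 ± 20.01 CPM in unstripped skin (1.53 ± 0.43 for stripped control against unstripped skin, edgeR adjusted p = 0.0315), and its call was lost on removal of NGO-treated replicate 2, of stripped control replicate 2 or 3, or of any unstripped replicate. The list had 0 calls in NGO-treated against either other group, and its median was 1.58, -0.06 and 0.83 in the order of the comparisons above.

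Of 7 tested interleukin-6 and STAT3 genes, Osm and Socs3 were called higher and Il6ra lower in stripped control than in unstripped skin, with a list median of 1.16. Osm, the gene of the cytokine oncostatin M, had 13 counts in NGO-treated, 80 in stripped control and 0 in unstripped libraries, and its call (edgeR adjusted p = 0.0478) was lost in 9 alternatives, 7 of them with 1 library removed: any NGO-treated or unstripped replicate, or stripped control replicate 1. Socs3, the feedback inhibitor induced by STAT3, averaged 144 ± 88.5 CPM in NGO-treated, 421 ± 155 CPM in stripped control and 64.5 ± 25.4 CPM in unstripped skin. Its log2 fold change was 2.70 ± 0.49 in stripped control against unstripped skin (edgeR adjusted p = 0.00226) and -1.54 ± 0.47 in NGO-treated against stripped control skin (adjusted p = 0.0755). Il6ra, the receptor chain, had 45.1 ± 7.15 CPM in NGO-treated, 7.57 ± 3.74 CPM in stripped control and 79.2 ± 9.91 CPM in unstripped skin, and was the 1 gene of the list called with NGO against stripped control skin (2.58 ± 0.54, edgeR adjusted p = 0.0186), a call lost without NGO-treated replicate 1 or 3 and in a fit of these groups by themselves. The list median was -1.03 in NGO-treated against stripped control skin and 0.47, with 0 calls, in NGO-treated against unstripped skin.

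Likeness of pattern was measured as the root-mean-square distance between log2 CPM profiles centred over the 9 libraries, among 10281 other genes at an average log2 CPM of at least 3. The closest to Mt2 were Tsc22d3 (distance 0.237), Lrrc46 (0.283) and the proteasome subunit gene Psmd8 (0.301). The closest to Mt1 were the actin-binding gene Twf2 (0.300), Synpo2l (0.333), a gene of striated muscle, and the co-chaperone gene Dnaja4 (0.335). Synpo2l had 7.24 ± 3.40 CPM in NGO-treated, 15.8 ± 11.01 CPM in stripped control and 0.115 ± 0.199 CPM in unstripped skin. The closest to Mt4 were Skint4 (1.06), Skint10 (1.16), which belong to a family expressed by keratinocytes, and Tesc (1.20). Skint4 averaged 0.267 CPM in NGO-treated and 39.7 CPM in unstripped skin and had 0 counts in stripped control skin.

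For Slc39a14 the closest were Cbfa2t3 (0.497), Bhlhe40 (0.534) and Lpgat1 (0.557), and for Mt3 they were Asb12 (0.792), Emilin2 (0.830) and Ptp4a3 (0.904). Mtf1 lay closest to Magt1 (0.111), Nfic (0.233) and Kif1c (0.235), Slc30a1 to Usb1 (0.398), Dcaf12 (0.499) and Slc35c1 (0.503), and Slc39a10 to Kif2a (0.281), Polr1c (0.286) and Mbnl1 (0.293). No other member of the 8 was among the 3 nearest to any member. All these distances are over the same 9 libraries and share their depth and tissue content.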

How the data were processed

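Raw counts, as deposited by the authors, came as 1 file per library (9 in all) with a gene symbol and a whole number on each line. Per the labels' protocols, RNA was isolated with Trizol and went into a Lexogen QuantSeq library, which reads 3′ ends. Bowtie2, bedtools and mm10 are named in the submitters' processing notes, and strand use and treatment of reads with several matches are not given in the sources used here. Reads of Mtf1, Slc30a1 and Mt2 and of antisense genes annotated over them cannot be told apart, nor can those of Slc39a10 and Gm28151 or Gm37393. No 50-base stretch of a GENCODE M21 transcript of Mt1, Mt2, Mt3 or Mt4 occurred in another gene's transcript. Gene coordinates are from GENCODE M21.

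Counts were tested in R 4.3.3 with edgeR 4.0.16 (quasi-likelihood, robust, TMM, filterByExpr) on all 9 libraries with group as the factor. P-values were adjusted by Benjamini-Hochberg over 13740 genes and called under 0.05. A log2 fold change is given with its SE. The script was tested on simulated data. The alternatives were RLE and upper-quartile scaling, library sizes without Rn45s and muscle, fat, blood and hair genes, no low-count filter, a filter of 20 counts in 3 libraries, DESeq2 1.42.0, a replicate block, fits restricted to the 2 groups compared, and removal of each library in turn. Repeat entries (44) were kept apart. Of each further list at most the 4 called genes with the smallest p per comparison were named, with every called transporter and the 3 genes nearest in profile to each member, and the exceptions are stated. The genes, the lists and this rule were chosen with earlier results of these data known. Replicates of a group differed by far more than counting noise (chi-square per degree of freedom 7.59 to 57.8), so none was counted as a repeat. Intervals cover counting error only.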

Additional observations from a re-analysis of the deposited data

How the results depend on the processing

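The number of called genes was 1870 of 13740 in stripped control against unstripped skin (1159 to 2124 leaving out 1 library, 2976 with DESeq2), 694 in NGO-treated against stripped control skin (206 to 929, 1721 with DESeq2, 118 with the compared groups alone) and 345 in NGO-treated against unstripped skin (214 to 495, 756 with DESeq2, 602 with the compared groups alone). Of the 694, 532 were higher and 162 lower, against 428 and 215 with RLE scaling, which put the median log2 fold change of all genes at -0.07 (TMM -0.20) in the first comparison and at -0.05 (TMM 0.07) in the second. Of the 8 genes, 3 to 5 were called in the first comparison without 1 library, 0 to 2 in the second (main 1, DESeq2 2, compared groups alone 0) and 1 to 3 in the third (main 2). Of the other zinc transporters 0 to 1 were called in the first comparison without 1 library, and 2 (Slc39a7 and Slc39a11) with DESeq2. Mt1, Mt2, Mt3, Slc39a14 and Slc30a1 kept their sign in all alternatives run.

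Signs changed for values within their error of 0. In stripped control against unstripped skin Mtf1 was 0.0712 with RLE, 0.0625 with upper-quartile scaling, 0.0016 with no filter and 0.0732 with DESeq2 (-0.64 to 0.31 leaving out 1 library), and Slc39a10 was 0.0557, 0.0167 and 0.0543 with RLE, upper-quartile scaling and DESeq2 (-0.33 to 0.0838). In NGO-treated against stripped control skin Mtf1 was 0.0225 with no filter and 0.0871 with the replicate block (-0.33 to 0.63), Slc39a10 ran from -0.29 to 0.41 and Mt4 from -1.76 to 0.99. In NGO-treated against unstripped skin Mtf1 was 0.0240 with no filter (-0.26 to 0.0773) and Slc39a10 ran from -0.38 to 0.27. The cause was not tested.

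Libraries with equal replicate numbers had deviations from the group means that correlated at -0.057 to 0.086. With 3 libraries per group these values cannot show whether such libraries shared an animal or a batch. With the replicate block 1650, 559 and 313 genes were called in the 3 comparisons.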

Other observations

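Iron and copper share carriers and stores with zinc, and their genes are given here as lists. Of all tested genes 13.6% were called in stripped control against unstripped skin, 5.05% in NGO-treated against stripped control skin and 2.51% in NGO-treated against unstripped skin. Of 15 tested iron handling genes, the ferritin chains Fth1 and Ftl1 and the siderophore binder Lcn2 were called higher and the ferroxidase gene Heph lower in stripped control than in unstripped skin (list median -0.09). Fth1 had 635, 984 and 705 CPM in NGO-treated libraries, against 2037, 2791 and 1689 CPM in stripped control libraries and 398, 440 and 457 CPM in unstripped libraries. The groups of Fth1 did not overlap, with a log2 fold change of 2.33 ± 0.30 in stripped control against unstripped skin (edgeR adjusted p = 0.000198) and of -1.49 ± 0.29 in NGO-treated against stripped control skin (adjusted p = 0.0133). The second call was lost without NGO-treated replicate 1 or 3 and in a fit of these groups by themselves. Heph averaged 10.2 ± 8.87 CPM in NGO-treated and 30.5 ± 12.2 CPM in unstripped skin and had 2 counts in stripped control skin, and its call (edgeR adjusted p = 0.0201) was lost without stripped control replicate 3 or unstripped replicate 1 or 2. Ftl1 averaged 194 ± 74.5 CPM in NGO-treated, 514 ± 161 CPM in stripped control and 48.8 ± 14.2 CPM in unstripped skin. Its log2 fold change was 3.40 ± 0.41 in stripped control against unstripped skin (edgeR adjusted p = 0.00013), -1.41 ± 0.38 in NGO-treated against stripped control skin (adjusted p = 0.0486, lost in 10 alternatives, 8 of them with 1 library removed, any but stripped control replicate 1) and 1.99 ± 0.39 in NGO-treated against unstripped skin (adjusted p = 0.0117, lost without unstripped replicate 2 or 3 or NGO-treated replicate 3).

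Lcn2, which neutrophils and keratinocytes make, averaged 32.6 ± 19.4 CPM in NGO-treated, 94.0 ± 54.4 CPM in stripped control and 0.622 ± 0.300 CPM in unstripped skin (6 counts in all), and was called higher in both stripped groups against unstripped skin (edgeR adjusted p = 0.000138 for stripped control and 0.00242 for NGO-treated). Tfrc, the transferrin receptor gene, was the 1 iron gene called higher in NGO-treated than in stripped control skin, at 98.8 ± 3.25 against 32.2 ± 7.09 CPM (1.62 ± 0.41, adjusted p = 0.0403), a call lost in 12 alternatives, RLE scaling among them and 8 with 1 library removed, any but stripped control replicate 1. Of 9 tested copper handling genes 0 were called by edgeR in any of the 3 comparisons (5, 2 and 1 at an unadjusted p under 0.05, which 27.9%, 21.2% and 11.7% of all genes had in the same order), with list medians of -0.29, 0.26 and -0.80.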
